A study of Mus musculus with 10 samples.

Results

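The 37 genes described here make the liver's cholesterol and fatty acids or regulate that synthesis, and they were taken from the expression table by gene symbol. Each of the 37 symbols had 1 row among the 24011 transcripts with a symbol. By role they were 6 regulators, 7 enzymes from acetyl-CoA to farnesyl diphosphate, 9 enzymes from squalene to cholesterol, 6 genes of fatty acid synthesis, 6 desaturases and elongases, and 3 genes of triglyceride formation. RNA-Seq of whole liver was performed 6 days after a tail vein injection of adenovirus in 10 C57BL/6 mice, males of 8 to 12 weeks. In 5 mice the adenovirus, of serotype 5, expressed VEGF-A, the growth factor of blood vessels, from the CMV promoter (AdVEGF). The 5 control mice received the same kind of virus with the CMV promoter alone and no transgene (AdCMV). Both groups thus carried an adenoviral vector, no uninjected liver was compared, and the CMV promoter is not restricted to one cell type.

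Hepatocytes build cholesterol from acetyl-CoA through mevalonate, farnesyl diphosphate and squalene. Its transcription is driven mainly by SREBP-2, the product of Srebf2, which is held in the endoplasmic reticulum by the Scap and Insig proteins while sterol is plentiful. Fatty acid synthesis starts from citrate, which Acly cleaves to acetyl-CoA, and passes through acetyl-CoA carboxylase and fatty acid synthase. It is driven in fed liver by insulin through SREBP-1c, from Srebf1, by the carbohydrate-sensing factor ChREBP, from Mlxipl, and by thyroid hormone. The fatty acids are then desaturated, elongated and joined to glycerol as triglyceride.

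The start regions of 4 genes on which the results turn are shown first, because 3 of them had the lowest fold changes and the fourth the highest among the tested sterol enzymes. RefSeq windows of 300 bases, from 250 bases before to 50 bases after an annotated start on GRCm38.p6, were at hand for 29 of the 37 genes. They are printed 5' to 3' on the gene's strand, and capitals mark the letters CCAAT or, on the other strand, ATTGG, the box bound by NF-Y, a common partner of SREBP. Me1 has a pair of annotated starts.
Me1, chr9:86687228-86687527, minus strand: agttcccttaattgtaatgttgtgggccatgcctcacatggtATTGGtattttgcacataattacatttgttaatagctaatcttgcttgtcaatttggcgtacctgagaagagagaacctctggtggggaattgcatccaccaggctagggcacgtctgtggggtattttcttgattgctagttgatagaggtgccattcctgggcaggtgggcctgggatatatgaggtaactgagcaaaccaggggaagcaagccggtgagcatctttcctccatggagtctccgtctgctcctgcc
Me1, chr9:86695865-86696164, minus strand: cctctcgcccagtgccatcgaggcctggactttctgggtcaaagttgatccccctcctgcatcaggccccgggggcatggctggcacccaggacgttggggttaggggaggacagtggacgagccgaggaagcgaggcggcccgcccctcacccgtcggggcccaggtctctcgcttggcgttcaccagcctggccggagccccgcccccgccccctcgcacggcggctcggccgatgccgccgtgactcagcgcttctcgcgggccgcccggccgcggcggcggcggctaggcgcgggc
Thrsp, chr7:97417501-97417800, minus strand: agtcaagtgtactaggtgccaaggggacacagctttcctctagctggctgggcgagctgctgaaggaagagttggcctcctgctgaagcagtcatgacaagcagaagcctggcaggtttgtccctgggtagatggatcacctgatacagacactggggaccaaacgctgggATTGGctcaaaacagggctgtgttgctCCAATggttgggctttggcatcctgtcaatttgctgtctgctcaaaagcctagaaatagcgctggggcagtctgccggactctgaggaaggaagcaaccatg
Acacb, chr5:114165268-114165567, plus strand: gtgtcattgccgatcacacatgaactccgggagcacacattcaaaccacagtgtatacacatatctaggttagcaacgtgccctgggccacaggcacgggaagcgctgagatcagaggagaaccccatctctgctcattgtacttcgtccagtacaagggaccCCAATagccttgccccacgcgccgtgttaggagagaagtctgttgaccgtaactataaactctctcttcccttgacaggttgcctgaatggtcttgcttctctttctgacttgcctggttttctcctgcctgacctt
Hsd17b7, chr1:169969156-169969455, minus strand: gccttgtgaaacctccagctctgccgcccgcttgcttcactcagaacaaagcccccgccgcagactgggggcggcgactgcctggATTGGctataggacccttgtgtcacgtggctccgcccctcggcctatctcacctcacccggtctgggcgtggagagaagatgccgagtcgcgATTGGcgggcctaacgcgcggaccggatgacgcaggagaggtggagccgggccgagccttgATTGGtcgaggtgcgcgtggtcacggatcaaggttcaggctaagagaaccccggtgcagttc
The box occurred once in the first Me1 window and not in the second, 2 times for Thrsp, once for Acacb and 3 times for Hsd17b7. Over all 39 windows of the 29 genes, 25 (64.1%) held CCAAT on either strand, against 37.4% of 32851 RefSeq windows of that length. The GC box GGGCGG, searched on both strands, was in 66.7% of these windows and in 35.7% of all windows. For the E-box CACGTG the shares were 15.4% and 7.15%, and for the sterol element TCACNCCAC they were 2.56% (1 window, of Hmgcs1) and 1.24%. These are matches of letters in a window, and no binding was measured.

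Expression was given as RPKM, read counts divided by transcript length and by the library's mapped tags, so that levels are per length. The libraries held 5758960 to 13493984 mapped tags in AdCMV and 5596564 to 8133953 in AdVEGF, as recovered from the steps between low values. The limma fit, made on log2(RPKM + 0.1), took in the 13933 transcripts whose mean exceeded 0.5 RPKM in AdCMV or AdVEGF. A transcript was called when its Benjamini-Hochberg adjusted p was under 0.05 and its log2 fold change over 1 or under -1. The median log2 fold change of all tested transcripts was 0.38, not 0, so that the deposited values were generally higher in AdVEGF, and 89.4% of the calls were higher. The major urinary protein genes took 18.0% to 50.5% of the reads in AdCMV and 7.84% to 28.6% in AdVEGF, and their part in this shift was not tested. After median-ratio scaling, which sets the median ratio of the libraries alike, the median was -0.0034 and 71.3% of calls were higher. Each member is therefore given on both scales. The labelled tissue was checked by 7 hepatocyte transcripts, among them Alb and Ttr, whose summed level was 15884 to 20488 RPKM in AdCMV and 28765 to 36098 RPKM in AdVEGF. In bulk liver, fewer cells of a type and less RNA per cell cannot be told apart.

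The genes of sterol synthesis lay close to the general shift, while Me1, Thrsp and, after scaling, Acacb of fatty acid synthesis were lower in AdVEGF. Of the 37 genes 36 were tested. None was called higher, where 13% of all tested transcripts were on deposited RPKM and 7.77% after scaling. An unadjusted p under 0.05 in the limma fit was reached upwards by 8 of them on deposited RPKM, against 34.9% of all transcripts, and by 1 after scaling, against 18.3%. Downwards it was reached by 4 and 6, against 3.69% and 17.3% of all transcripts. Called lower were 2 on deposited RPKM, Me1 and Thrsp, against 1.54% of all transcripts, and 3 after scaling, with Acacb added, against 3.13%. At any fold, an adjusted p under 0.05 was reached upwards on deposited RPKM by 3 members, Stard4, Hsd17b7 and Elovl5, against 21.9% of all, and downwards by 2, against 2.23%. After scaling, 4 members reached it downwards, Me1, Thrsp, Acacb and Dgat2, against 10.2% of all. Groups that did not overlap were seen for Stard4 upwards on deposited RPKM, where 14.3% of all transcripts had them, and for no member downwards, where 1.29% had. After scaling, Me1 was separate downwards, as were 7.11% of all, and no member upwards, as were 10.6%. The median log2 fold change over the 36 members was 0.42 on deposited RPKM and 0.020 after scaling, beside 0.38 and -0.0034 over all transcripts. The members divided into 19 above and 17 below the median of all transcripts.

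**Figure D1:**
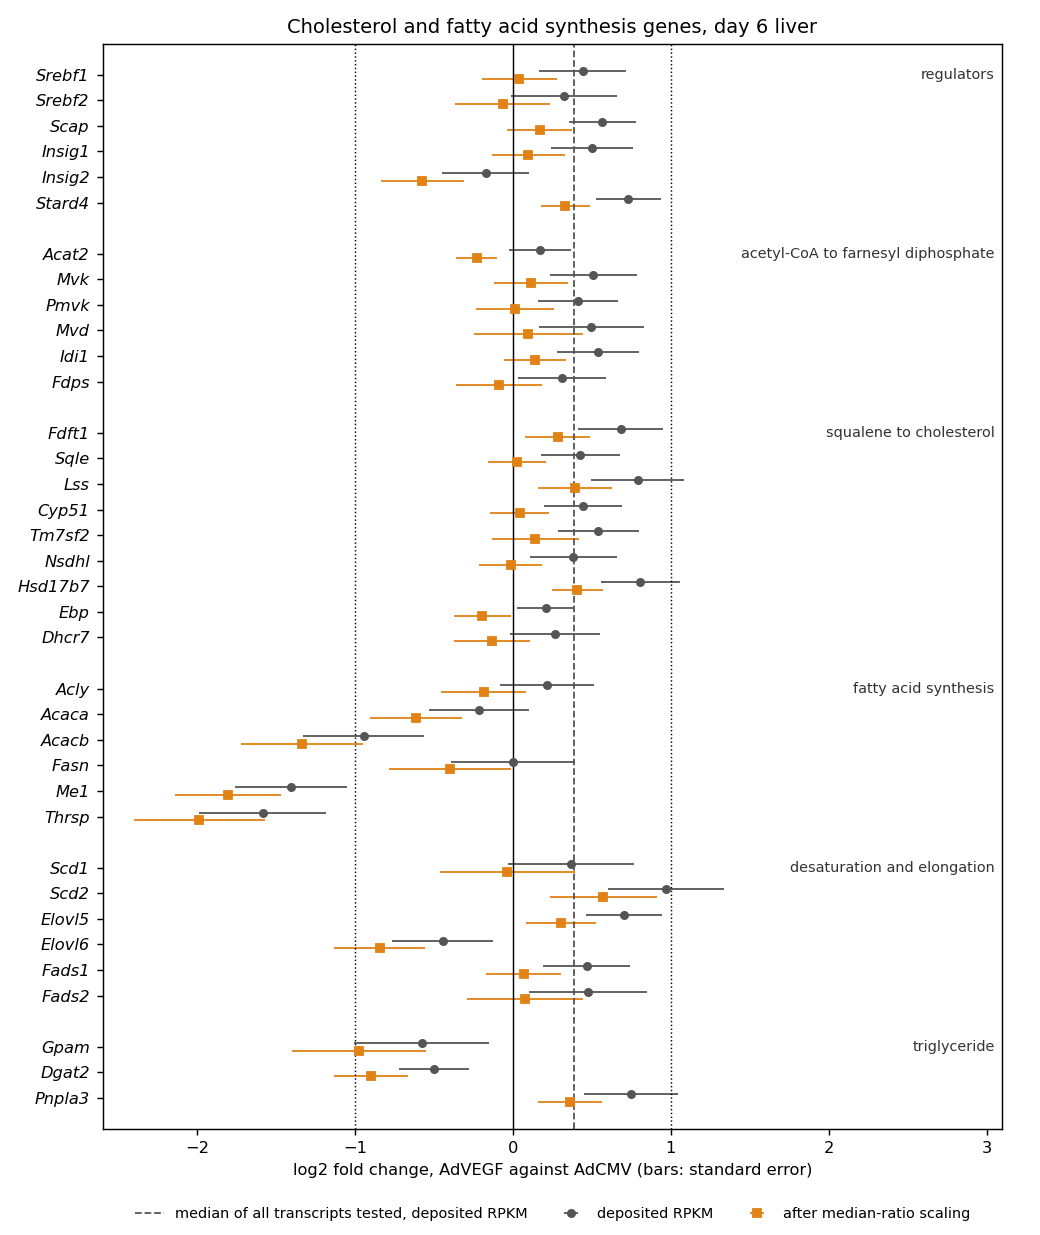
Log2 fold change, AdVEGF against AdCMV (x axis), of the 36 tested members by role (rows), with bars for the standard error; circles are deposited RPKM, squares are values after median-ratio scaling, the dashed line is the median of all tested transcripts (0.38, deposited RPKM) and dotted lines mark -1 and 1. On deposited RPKM all 6 genes of fatty acid synthesis lie left of the dashed line. The 15 tested sterol enzymes lie between 0.17 and 0.81, 10 of them right and 5 left of that line, and Acly (0.21) lies within their range.

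Among the 6 regulators, none was called. An unadjusted limma p under 0.05 was reached upwards by 2 on deposited RPKM (34.9% of all transcripts) and by 0 after scaling (18.3%). The median log2 fold change was 0.47 on deposited RPKM and 0.069 after scaling. Srebf1, which encodes the SREBP-1 proteins, stood at 27.6, 16.2, 25.2, 11.6 and 40.7 RPKM in the AdCMV mice and at 26.0, 35.2, 33.5, 24.7 and 32.6 RPKM in the AdVEGF mice. The highest and the lowest Srebf1 values were both in AdCMV, and the log2 fold change was 0.44 (SE 0.28, limma adjusted p = 0.248), or 0.04 after scaling. Srebf2 was measured at 2.98, 2.10, 4.85, 2.33 and 7.79 RPKM in AdCMV and at 5.71, 2.69, 5.07, 3.62 and 6.21 RPKM in AdVEGF. Its AdVEGF range lay inside the AdCMV range, with a log2 fold change of 0.32 (SE 0.33, adjusted p = 0.485) that turned to -0.07 after scaling. Scap, the escort protein of SREBP, stood at 10.0, 7.04, 8.82, 8.64 and 13.6 RPKM in AdCMV and at 17.7, 11.1, 13.1, 13.8 and 14.8 RPKM in AdVEGF. Of the AdVEGF mice 3 were above all AdCMV mice for Scap, but its log2 fold change of 0.57 (SE 0.21) missed the threshold (adjusted p = 0.0582) and was 0.17 after scaling.

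The Insig proteins retain the Scap and SREBP complex in the endoplasmic reticulum. Insig1, itself a target of SREBP, was at 88.5, 83.1, 78.4, 46.6 and 155 RPKM in AdCMV and at 140, 99.9, 140, 103 and 117 RPKM in AdVEGF. AdCMV replicate 5 was the highest of all 10 mice, and the log2 fold change of 0.50 (SE 0.26, adjusted p = 0.165) was 0.10 after scaling. For Insig2, whose liver transcript is known to fall with insulin, the values were 67.5, 75.3, 87.5, 44.3 and 54.9 RPKM in AdCMV and 80.3, 95.8, 49.97, 33.2 and 46.5 RPKM in AdVEGF. The groups overlapped widely, at a log2 fold change of -0.17 (SE 0.28, adjusted p = 0.659) on deposited RPKM and -0.57 (adjusted p = 0.143) after scaling. Stard4, a soluble carrier of cholesterol and a target of SREBP-2, was at 9.14, 8.56, 12.6, 9.08 and 13.3 RPKM in AdCMV and at 20.5, 13.9, 21.4, 14.4 and 17.5 RPKM in AdVEGF. All AdVEGF mice were above all AdCMV mice on deposited RPKM, with means of 17.5 ± 3.40 and 10.5 ± 2.23 RPKM (SD, n = 5 each). The difference of 1.66-fold (log2 0.73, SE 0.21, limma adjusted p = 0.0167) was short of the fold threshold, and after scaling the groups overlapped at a log2 fold change of 0.33 (adjusted p = 0.145). The adjusted p of Stard4 on deposited RPKM was between 0.0501 and 0.0578 when AdCMV replicate 1 or 2 or AdVEGF replicate 1 or 3 was left out.

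The enzymes from acetyl-CoA to farnesyl diphosphate differed little. Of the 7, 6 were tested, and none was called or reached an unadjusted limma p under 0.05. Their log2 fold changes lay between 0.17 and 0.54, and the median was 0.45, or 0.055 after scaling. Acat2, which condenses acetyl-CoA in the cytosol, averaged 67.5 ± 11.8 RPKM in AdCMV and 75.9 ± 12.6 RPKM in AdVEGF (SD, n = 5 each). Mevalonate is phosphorylated by Mvk and then by Pmvk and decarboxylated by Mvd. These 3 had log2 fold changes of 0.51, 0.41 and 0.50 on deposited RPKM and of 0.11, 0.01 and 0.10 after scaling. Idi1, the isomerase of isopentenyl diphosphate, was at 37.7 ± 11.9 RPKM in AdCMV and 54.5 ± 17.5 RPKM in AdVEGF. Fdps, which makes farnesyl diphosphate, reached 321 RPKM in AdVEGF replicate 1, whereas the other 9 mice were between 80.9 and 195 RPKM. The adjusted p of the 6 was 0.137 or higher on deposited RPKM, and the fold changes of Acat2 and Fdps turned to -0.23 and -0.09 after scaling.

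Hmgcs1, the cytosolic HMG-CoA synthase, was listed at 0 in all 10 libraries. Its row was placed on an unplaced part of chromosome 13 of mm9, and each of the 64 rows on such unplaced or random sequences was listed at 0 in every library. The value therefore gives no level for this enzyme, and no fold was computed.

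From squalene to cholesterol, 9 enzymes were tested and none was called. At an unadjusted limma p under 0.05, 3 were higher on deposited RPKM (34.9% of all transcripts) and 1 after scaling (18.3%). The 9 had log2 fold changes of 0.21 to 0.81, a median of 0.44, and 0.041 after scaling. Hsd17b7, a ketosteroid reductase of the demethylation of lanosterol, had the highest value of these. It stood at 9.05, 7.21, 11.5, 5.07 and 10.8 RPKM in AdCMV and at 19.0, 14.6, 18.4, 13.9 and 9.70 RPKM in AdVEGF. Of the AdVEGF mice 4 exceeded all AdCMV mice, and replicate 5 lay within the AdCMV range. Its means were 8.73 ± 2.64 and 15.1 ± 3.79 RPKM (SD, n = 5 each), a 1.75-fold difference (log2 0.81, SE 0.25, limma adjusted p = 0.0275). After scaling the log2 fold change was 0.41 (SE 0.16, adjusted p = 0.0894). On deposited RPKM its adjusted p passed 0.05 without AdCMV replicate 2 or 4 or AdVEGF replicate 1, 2 or 3, reaching 0.0793.

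Fdft1 makes squalene and Sqle oxidises it, and Lss closes the ring to lanosterol. Fdft1 was at 25.8 ± 8.63 RPKM in AdCMV and 39.4 ± 8.04 RPKM in AdVEGF, a log2 fold change of 0.68 (SE 0.27, adjusted p = 0.0722). It overlaps Ctsb, a lysosomal protease gene on the opposite strand listed at up to 156 RPKM, and whether the counting used strand was not given in the sources used here, so the level of Fdft1 is uncertain. Lss averaged 5.54 ± 2.34 and 9.14 ± 2.68 RPKM, at a log2 fold change of 0.79 (SE 0.30, adjusted p = 0.0616). Sqle lay at 0.43 on the same scale. After scaling the 3 were at 0.28, 0.40 and 0.03. The later steps of demethylation, reduction and isomerisation belong to Cyp51, Tm7sf2, Nsdhl, Ebp and Dhcr7. They had log2 fold changes of 0.44, 0.54, 0.38, 0.21 and 0.27 on deposited RPKM and of 0.04, 0.14, -0.02, -0.20 and -0.13 after scaling. Ebp, the sterol isomerase, was the most abundant of the 9 per length in both groups, at 71.1 ± 10.9 and 81.7 ± 9.79 RPKM (SD, n = 5 each). Taken over both segments, 10 of 15 tested sterol enzymes were above and 5 below the median of all transcripts. A further pair of sterol enzymes outside the 37, Msmo1 and Sc5d, had log2 fold changes of 0.63 and 0.50 on deposited RPKM and 0.23 and 0.10 after scaling, with adjusted p of 0.105 or higher.

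All 6 genes of fatty acid synthesis were below the median of all transcripts on both scales, with a median log2 fold change of -0.58 on deposited RPKM and -0.98 after scaling. Of these, 2 were called lower on deposited RPKM (1.54% of all transcripts) and 3 after scaling (3.13%). Malic enzyme 1, Me1, which supplies NADPH for fatty acid synthesis, was at 75.1, 97.0, 136, 36.6 and 53.5 RPKM in AdCMV and at 52.3, 28.5, 34.6, 13.8 and 20.5 RPKM in AdVEGF. On deposited RPKM AdCMV replicate 4 lay among the AdVEGF mice, and after scaling no mouse did, with 54.3 to 120 RPKM against 11.5 to 45.0 RPKM. Me1 fell from 79.6 ± 38.7 to 29.9 ± 14.8 RPKM (SD, n = 5 each), by 1.41 on the log2 scale (SE 0.36, limma adjusted p = 0.00873), which is 2.65 times lower. After scaling it was 3.50 times lower (log2 -1.81, SE 0.34, adjusted p = 0.00194).

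Thrsp, the Spot14 gene known for its response to thyroid hormone and carbohydrate, showed the lowest fold change of the 36. It was measured at 132, 90.7, 131, 48.6 and 78.6 RPKM in AdCMV and at 96.8, 20.4, 36.8, 16.1 and 20.7 RPKM in AdVEGF. AdVEGF replicate 1 lay within the AdCMV range and the other 4 AdVEGF mice lay below it. Thrsp fell by 1.59 on the log2 scale (SE 0.40, adjusted p = 0.00884), or 3.00 times, from 96.1 ± 35.6 to 38.2 ± 33.7 RPKM (SD, n = 5 each). After scaling it was 3.96 times lower (log2 -1.99, SE 0.42, adjusted p = 0.00404). Both genes were called lower under each of the 19 alternatives tried, including each mouse left out in turn.

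The acetyl-CoA carboxylases form malonyl-CoA. Acaca encodes the cytosolic enzyme of synthesis, and Acacb the mitochondrial enzyme whose product restrains fatty acid entry into mitochondria. Acacb was at 7.88, 6.20, 8.46, 3.57 and 9.23 RPKM in AdCMV and at 9.02, 2.94, 3.65, 1.31 and 3.68 RPKM in AdVEGF. AdVEGF replicate 1 stood among the control mice, and AdCMV replicate 4 within the range of the other AdVEGF mice. Its log2 fold change was -0.95 (SE 0.38, adjusted p = 0.0797) on deposited RPKM, and after scaling Acacb fell by 1.34 (SE 0.39, adjusted p = 0.0252), or 2.53 times. The call after scaling was lost without AdCMV replicate 1 or 5 or AdVEGF replicate 2 or 3 (adjusted p of 0.0510 to 0.0619) and without AdVEGF replicate 4, where the log2 fold change was -0.99. Acaca averaged 14.2 ± 4.73 and 12.6 ± 5.70 RPKM (SD, n = 5 each), at a log2 fold change of -0.22 (SE 0.32, adjusted p = 0.629) and -0.61 (adjusted p = 0.154) after scaling. Fasn, the synthase itself, was at 13.2 to 59.3 RPKM in AdCMV and 15.7 to 72.4 RPKM in AdVEGF, with a log2 fold change of 0.00 (SE 0.39, adjusted p = 0.998) and -0.40 after scaling. Acly averaged 41.0 ± 13.6 and 47.0 ± 18.9 RPKM (SD, n = 5 each), at a log2 fold change of 0.21 (SE 0.30), which turned to -0.19 after scaling.

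**Figure D2:**
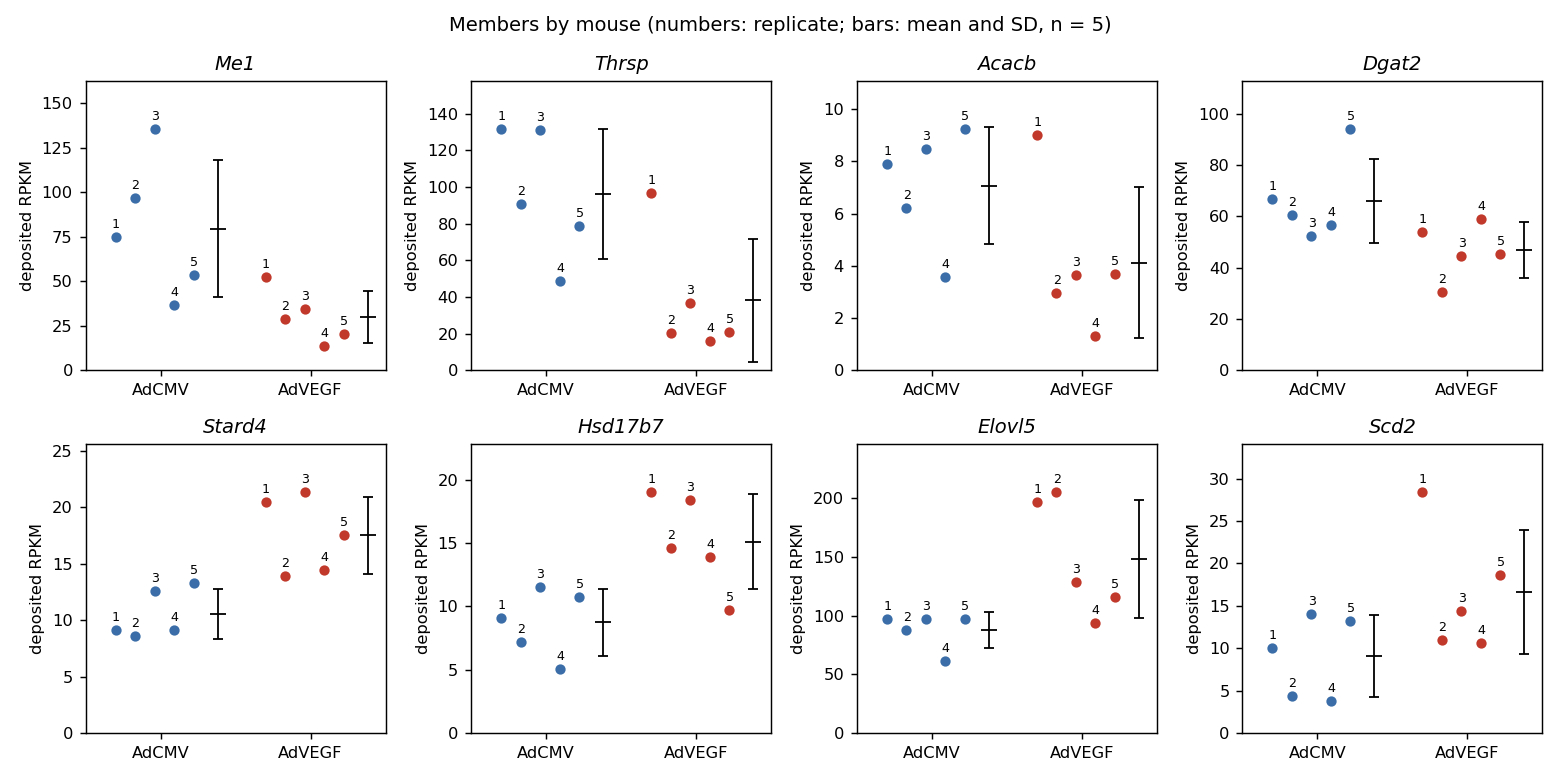
Deposited RPKM (y axis, from 0) of 8 members in each mouse, with the replicate number above the point and bars for the mean and SD (n = 5 per group). AdVEGF replicate 1 lies apart from the other AdVEGF mice for Thrsp (96.8 RPKM, others 16.1 to 36.8 RPKM) and Acacb, and the groups are separate for Stard4.

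The desaturases and elongases did not move as one. None of the 6 was called. An unadjusted limma p under 0.05 was reached on deposited RPKM by 2, both higher (34.9% of all transcripts). After scaling it was reached by 1, lower (17.3%). Log2 fold changes lay between -0.45 and 0.97, and the median was 0.47, or 0.072 after scaling. Elovl5, an elongase of polyunsaturated fatty acids, stood at 97.0, 87.4, 97.0, 61.6 and 96.8 RPKM in AdCMV and at 197, 206, 128, 93.8 and 116 RPKM in AdVEGF. Only AdVEGF replicate 4 lay within the AdCMV range, and the means were 88.0 ± 15.3 and 148 ± 50.2 RPKM (SD, n = 5 each). The 1.63-fold difference (log2 0.70, SE 0.24, limma adjusted p = 0.0410) was 0.30 on the log2 scale after scaling (adjusted p = 0.362). Its adjusted p on deposited RPKM was over 0.05, up to 0.121, without AdCMV replicate 1, 2 or 4 or AdVEGF replicate 1, 2 or 3. Elovl6, which lengthens palmitate to stearate, went the other way, with 15.8 ± 4.91 and 12.5 ± 7.28 RPKM and log2 fold changes of -0.45 (SE 0.32, adjusted p = 0.310) and -0.84 (SE 0.29, adjusted p = 0.0527) after scaling.

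Scd1, the main stearoyl-CoA desaturase of liver, was the most abundant member, at 368 to 880 RPKM in AdCMV and 292 to 2150 RPKM in AdVEGF. The upper value was from AdVEGF replicate 1 and the lower from AdVEGF replicate 4, and the log2 fold change was 0.37 (SE 0.40, adjusted p = 0.510), or -0.04 after scaling. Scd2, the desaturase better known from brain and newborn liver, was at 9.97, 4.30, 14.1, 3.76 and 13.2 RPKM in AdCMV and at 28.4, 11, 14.4, 10.6 and 18.6 RPKM in AdVEGF. Of the AdVEGF mice 3 were above all AdCMV mice, with a log2 fold change of 0.97 (SE 0.37, adjusted p = 0.0642) that was 0.57 (adjusted p = 0.255) after scaling. Scd2 was called higher on deposited RPKM when AdCMV replicate 3 (log2 1.17, adjusted p = 0.0227), AdCMV replicate 5 (1.15, adjusted p = 0.0352) or AdVEGF replicate 4 (1.10, adjusted p = 0.0498) was left out. The delta desaturases Fads1 and Fads2 lay at log2 fold changes of 0.47 and 0.48, and at 0.07 and 0.08 after scaling.

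Of the 3 genes of triglyceride formation, Gpam and Dgat2 were below the median of all transcripts and Pnpla3 above it. Dgat2, which adds the last acyl chain, was at 66.9, 60.4, 52.3, 56.6 and 94.0 RPKM in AdCMV and at 54.0, 30.6, 44.6, 59.1 and 45.4 RPKM in AdVEGF. AdVEGF replicates 1 and 4 lay within the AdCMV range, and the means were 66.0 ± 16.5 and 46.7 ± 10.9 RPKM (SD, n = 5 each). Its log2 fold change was -0.50 (SE 0.22, adjusted p = 0.104) on deposited RPKM, and after scaling Dgat2 was 1.87 times lower (log2 -0.90, SE 0.23, adjusted p = 0.0145), past the p threshold but not the fold threshold. The adjusted p after scaling was 0.0384 or lower with any mouse left out. Gpam, the mitochondrial acyltransferase of the first step, averaged 20.6 ± 12.9 and 12.9 ± 7.08 RPKM (SD, n = 5 each), at log2 fold changes of -0.58 (SE 0.43, adjusted p = 0.326) and -0.98 (adjusted p = 0.119) after scaling. Pnpla3, a lipid droplet protein that is a target of SREBP-1c, averaged 2.56 ± 1.11 and 4.24 ± 1.33 RPKM, at log2 fold changes of 0.75 (SE 0.30, adjusted p = 0.0754) and 0.36 (adjusted p = 0.230) after scaling.

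Ratios of 2 members within a library do not depend on the scaling between libraries, so 6 pairs of related genes were compared with an exact two-sided permutation test of 5 against 5 mice, whose smallest possible p is 0.00794. The ratio of Acaca to Acacb was 1.92, 2.05, 2.35, 1.98 and 1.73 in AdCMV and 2.38, 4.17, 3.31, 4.24 and 3.13 in AdVEGF. All AdVEGF mice were above all AdCMV mice, although AdVEGF replicate 1 was only just so, and the mean log2 ratio was higher by 0.75 (SE 0.17, exact p = 0.00794, adjusted over 6 pairs p = 0.0238). For Elovl6 to Elovl5 the ratio was 0.168, 0.154, 0.230, 0.149 and 0.185 in AdCMV and 0.124, 0.0677, 0.0794, 0.0717 and 0.0629 in AdVEGF. Here all AdVEGF mice were below all AdCMV mice, with a difference of -1.15 in the mean log2 ratio (SE 0.21, exact p = 0.00794, adjusted p = 0.0238). Because the groups were already separate, leaving out any mouse had to keep them so. The resulting adjusted p of 0.0476 or lower in the exact test therefore adds no support. The remaining 4 pairs missed the threshold. Insig1 to Insig2 differed by 0.67 (SE 0.41, exact adjusted p = 0.226) and Scd2 to Scd1 by 0.61 (SE 0.37, exact adjusted p = 0.226). Srebf1 to Srebf2 differed by 0.11 (SE 0.32, exact adjusted p = 0.895), and Fads1 to Fads2 by -0.010 (SE 0.24, exact adjusted p = 0.968).

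**Figure D3:**
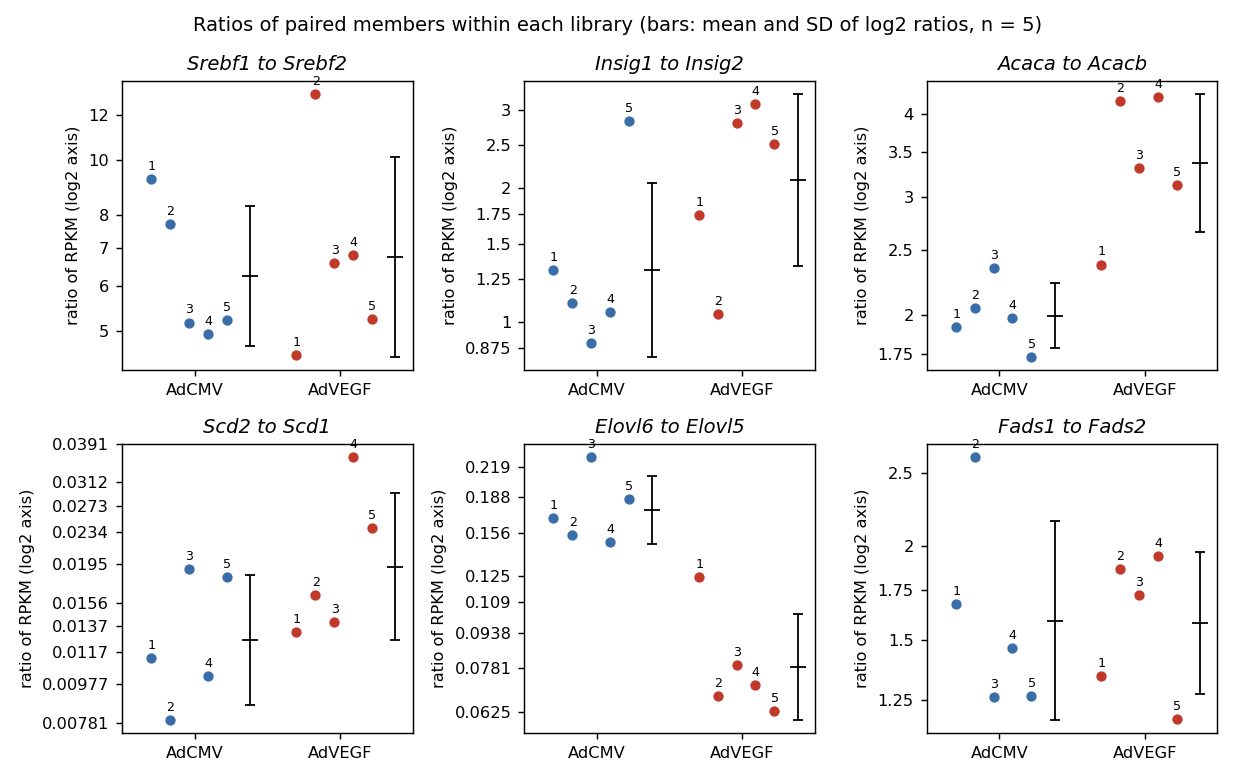
Ratio of the RPKM of 2 related members in each mouse (y axis, log2 scale, with ticks at the plain ratio), with the replicate number above the point and bars for the mean and SD of the log2 ratios (n = 5 per group). The groups are separate for Acaca to Acacb (up to 2.35 in AdCMV, from 2.38 in AdVEGF) and for Elovl6 to Elovl5 (from 0.149 in AdCMV, up to 0.124 in AdVEGF).

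Individual mice had a common rank over many members. AdVEGF replicate 1 was the highest of its group for 27 of the 36 tested members, and AdVEGF replicate 4 was the lowest for 20. Among the AdCMV mice, replicate 4 was the lowest for 29, while replicate 5 was the highest for 19 and replicate 3 for 13. The factor of the median-ratio scaling was the lowest of that group for replicate 4 (0.660) and the highest for replicate 3 (1.22). How often each mouse ranked so over all transcripts was not counted. After scaling, AdVEGF replicate 1 was still the highest for 27 and AdVEGF replicate 4 the lowest for 21. AdCMV replicate 4 was then the lowest for 19, replicates 1 and 5 the highest for 15 each, and replicate 3 for 1. AdCMV replicate 4 had the largest share of major urinary protein reads, 50.5%, and AdCMV replicate 3 the smallest of its group, 18.0%.

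**Figure D4:**
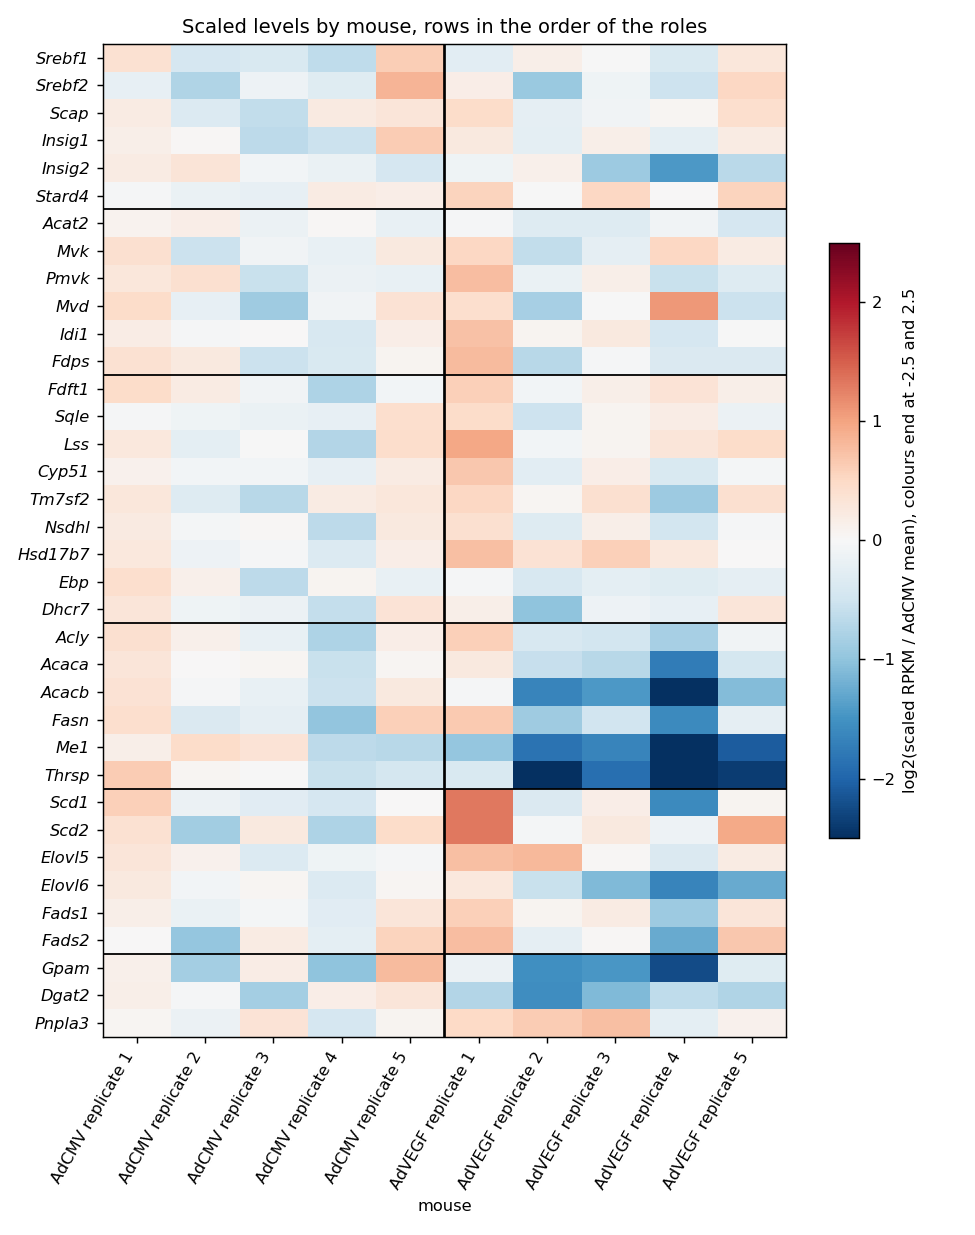
Log2 of the median-ratio scaled RPKM over the mean of the 5 AdCMV mice (colour, blue lower and red higher) for the 36 tested members (rows, by role) in each mouse (columns). Me1 is blue in all 5 AdVEGF mice, Gpam, Acacb, Me1 and Thrsp are deep blue in AdVEGF replicate 4, and AdVEGF replicate 1 holds the highest value of its group in 27 rows.

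Lipid and sterol metabolism outside the 37 genes was described from lists with roles next to theirs. In the supply of precursors and sensing of nutrients, 20 genes were tested and none was called on either scale, with 3 higher (34.9% of all transcripts) and 1 lower (3.69%) at an unadjusted limma p under 0.05 on deposited RPKM and 0 higher (18.3%) and 7 lower (17.3%) after scaling. After scaling 5 of the 20 were lower at an adjusted p under 0.05, against 10.2% of all transcripts, among them Mlxipl, Idh1, Pgd and Tkt. Mlxipl, which encodes ChREBP, was at 26.5, 21.6, 24.8, 14.7 and 23.5 RPKM in AdCMV and at 16.8, 14.0, 14.4, 9.45 and 19.9 RPKM in AdVEGF. Its log2 fold change was -0.59 (adjusted p = 0.0686) on deposited RPKM and -0.99 (adjusted p = 0.00650) after scaling. The liver pyruvate kinase Pklr, a known target of ChREBP, had log2 fold changes of -0.78 (adjusted p = 0.132) on deposited RPKM and -1.18 (adjusted p = 0.0510) after scaling.

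In the list of other elongation and reduction enzymes, 1 of 5 was called lower on both scales, against 1.54% and 3.13% of all transcripts. This was Elovl3, an elongase known for its dependence on sex and time of day, at 121, 126, 42.3, 80.4 and 126 RPKM in AdCMV and at 70.0, 51.6, 4.87, 1.57 and 47.4 RPKM in AdVEGF. Its lowest values were those of AdVEGF replicates 3 and 4, and its log2 fold change was -2.43 (SE 0.79, adjusted p = 0.0330), or -2.83 (adjusted p = 0.0496) after scaling. The 14 tested genes of triglycerides and lipid droplets were all below the median of all transcripts, with a median log2 fold change of -0.20 and -0.59 after scaling. Called lower were 1 of these on deposited RPKM and 2 after scaling, against 1.54% and 3.13% of all transcripts. G0s2, an inhibitor of adipose triglyceride lipase, was called lower on both scales, with 93.2, 95.4, 185, 83.0 and 29.6 RPKM in AdCMV and 52.0, 48.3, 50.05, 36.5 and 20.7 RPKM in AdVEGF (log2 fold change -1.08, adjusted p = 0.0445, and -1.48, adjusted p = 0.0154, after scaling). Plin4, of the lipid droplet coat, was called lower only after scaling (log2 -1.19, adjusted p = 0.0119). Plin4 had only 12 to 39 reads per library in AdVEGF and 34 to 112 in AdCMV, and its groups overlapped on both scales. Mttp, which loads lipid onto apolipoprotein B, lay at -0.58 (adjusted p = 0.0789) and -0.98 (adjusted p = 0.00130).

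Of 11 genes of sterol storage, efflux and lysosomal release, 1 was called higher on both scales, against 13% and 7.77% of all transcripts. Abcg1, an exporter of cholesterol, was at 2.10, 2.04, 4.62, 1.72 and 4.31 RPKM in AdCMV and at 8.19, 8.91, 8.59, 9.79 and 7.99 RPKM in AdVEGF. No AdVEGF mouse overlapped the AdCMV mice, and the log2 fold change was 1.64 (SE 0.27, adjusted p = 0.000243) and 1.25 (adjusted p = 0.000134) after scaling. Abcg1 is also expressed by endothelial cells and macrophages, and their part was not tested. As given next, all 6 endothelial markers but only 2 of 5 Kupffer cell markers were called higher in AdVEGF. Mylip was higher at 0.96 (limma adjusted p = 0.0127) and, after scaling, at 0.58 (adjusted p = 0.0413), short of the fold threshold. Abca1, the exporter to apolipoprotein A1, lay at -0.08 and, after scaling, at -0.48 (adjusted p = 0.0233). Lipa (-0.48, adjusted p = 0.00873) and Abcg5 (-0.73, adjusted p = 0.0325) were also lower after scaling. These 3 of 11 stood against 10.2% of all transcripts.

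Markers of other liver cells differed between the groups. Shares called higher over all transcripts were 13% on deposited RPKM and 7.77% after scaling, and those called lower 1.54% and 3.13%. The 6 endothelial transcripts, among them Pecam1 and Cdh5, were all called higher on both scales and summed to 19.7 to 42.3 RPKM in AdCMV and 190 to 207 RPKM in AdVEGF. Of the 5 Kupffer cell markers 2 were called higher, with sums of 47.4 to 109 and 108 to 158 RPKM. Cd5l, which was not called, made up most of these sums, at means of 64.2 RPKM in AdCMV and 107 RPKM in AdVEGF. Of the 5 stellate and fibroblast markers 4 were called higher, with sums of 62.2 to 98.4 and 107 to 223 RPKM. Most of these sums came from Dcn, the marker not called, at means of 71.1 RPKM in AdCMV and 130 RPKM in AdVEGF. Of the 5 T and NK cell markers 4 were tested and called lower, with sums of 4.96 to 21.5 and 3.07 to 8.49 RPKM. None of the 7 hepatocyte markers was called by limma on scaled values, where 1 had an unadjusted p under 0.05. Alb and Apoa1 were called higher on deposited RPKM, and their groups did not overlap on either scale. After scaling they were 1.67-fold and 1.71-fold higher, and 10.6% of all transcripts had groups separate upwards. The adipocyte list summed to 9.57 to 32.4 RPKM in AdCMV and 142 to 369 RPKM in AdVEGF. Fabp4, which endothelial cells also express, made up nearly all of the AdVEGF sums, at 139 to 367 RPKM against 4.34 to 27.2 RPKM in AdCMV. Cfd was called lower on both scales (log2 fold change -2.83, adjusted p = 0.00135, and -3.12, adjusted p = 0.00347, after scaling), and Lipe lay at -0.48 (adjusted p = 0.105) and -0.87 (adjusted p = 0.000729), with groups that did not overlap for either gene. Cfd had only 6 to 35 reads per library in AdCMV and 0 to 5 in AdVEGF, so the size of its fold change is uncertain. Adipoq and Plin1 were listed at 0 in every library, and Lep at 0.055 RPKM or less. The part of these cells in the members' values was not tested.

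Feeding and time of day act on many of these genes in normal liver, and neither was given for the mice in the sources used here. Of 8 transcripts that follow feeding, Fgf21 was called higher on deposited RPKM (log2 1.58, limma adjusted p = 0.0379), where 13% of all transcripts were. None was called after scaling, where Fgf21 was at 1.21 (adjusted p = 0.126). There 1 was higher (18.3% of all transcripts) and 2 were lower (17.3%) at an unadjusted limma p under 0.05. Of 12 clock transcripts, Dbp, Per3 and Tef were called higher on deposited RPKM, where 13% of all transcripts were, and none after scaling. After scaling 4 were higher at an unadjusted limma p under 0.05 (Per1, Per3, Dbp and Tef), beside 18.3% of all transcripts. Another 4 were lower (Arntl, Clock, Npas2 and Cry1), beside 17.3%. Dbp, an output gene of the clock, was at 1.49, 1.24, 9.34, 1.01 and 0.831 RPKM in AdCMV and at 5.96, 3.46, 13.5, 30.3 and 2.75 RPKM in AdVEGF (log2 fold change 2.05, adjusted p = 0.0257, and 1.67, adjusted p = 0.0785, after scaling). The highest Dbp values of the groups were in AdCMV replicate 3 and AdVEGF replicate 4. AdVEGF replicate 4 was the lowest AdVEGF mouse for Me1, Thrsp and Acacb, whereas AdCMV replicate 3 was the highest of all mice for Me1 (136 RPKM) and stood high for Thrsp (131 RPKM) and Acacb (8.46 RPKM). AdVEGF replicate 3, with the next highest Dbp of its group, also had the next highest Me1 and Thrsp after AdVEGF replicate 1. The part of these states in the members' values was not tested.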

How the data were processed

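RNA-Seq libraries of ribosome-depleted total liver RNA from 5 AdCMV and 5 AdVEGF mice were analysed. The authors mapped reads with TopHat and deposited RPKM values in 1 table with 1 row per transcript, and the submitters' processing notes also name HOMER and the build mm9. RPKM are relative to all mapped tags, so a few abundant transcripts can lower all other values of a library. Reads were recovered from the steps of the deposited RPKM (99.99% or more of the values came out whole), and each library's total follows from them. Reads added up over transcripts gave 2.31% to 13.9% more than the mapped tags, so that some reads were counted for more than 1 transcript. Of 24016 rows, 5 named no gene and held at most 0.0053% of reads. For a transcript of 1 kb the limit that a count of 0 allows (3 reads) was 0.222 to 0.536 RPKM, which covers counting error only, since the protocol names no molecular identifiers. The members had 60 reads or more in every library, Hmgcs1 excepted.

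The fit used limma 3.58.1 (trend) in R 4.3.3 on log2(RPKM + 0.1), for transcripts whose mean exceeded 0.5 RPKM in AdCMV or AdVEGF, with Benjamini-Hochberg adjustment over all 13933. Fold changes are on that scale, which understates changes of low genes. For a call the adjusted p had to be under 0.05 and the log2 fold change beyond 1 in either direction, the thresholds of the study's methods. The labels call the samples biological replicates. Every member is named, with values in each mouse for the regulators and for members that were called, passed the adjusted p or had separate groups. Scd2 and Mlxipl, Elovl3, G0s2, Abcg1 and Dbp were given by mouse after their values were seen. The members and lists were chosen with earlier results of these data known. Of the listed symbols, Agpat6 was not analysed here, Sc4mol is the older symbol of Msmo1, and 1 gene of the supply and sensing list is not reported here by name. Alternatives were 2 other scalings, other pseudocounts and filters, a block for the replicate number, and each mouse left out. Leaving out mice after median-ratio scaling was added after seeing the data. RefSeq start regions are on GRCm38.p6, and no coordinates were converted between builds.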

Additional observations from a re-analysis of the deposited data

Results flagged for a closer look

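Among 72 groups of 5 values (36 members in each of 2 groups, deposited RPKM), 3 held a mouse whose gap to the nearest other mouse, divided by the range of the group, exceeded Dixon's critical value of 0.71. Chance alone gives about 1 in 20 such groups. Thrsp in AdVEGF replicate 1 was at 96.8 RPKM, with the other 4 AdVEGF mice at 16.1 to 36.8 RPKM, and without that mouse Thrsp fell by 2.01 on the log2 scale (limma adjusted p = 0.000135). Acly in the same mouse was at 79.8 RPKM, with the others at 30.8 to 42.6 RPKM. Elovl5 in AdCMV replicate 4 was at 61.6 RPKM, with the others at 87.4 to 97.0 RPKM, and without that mouse its log2 fold change was 0.58 (adjusted p = 0.109).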

How the results depend on the processing

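Scaling was the choice that moved most results. All transcripts called higher numbered 1808 on deposited RPKM, 1082 after median-ratio scaling, 1169 after upper quartile scaling, 954 with a pseudocount of 1 RPKM and 1081 with the replicate block after median-ratio scaling. Those called lower numbered 214, and 436, 366 and 475 under the 2 scalings and the scaled block. Members called lower stayed at 2 or 3 under every alternative, 2 to 4 with a mouse left out after median-ratio scaling. Members called higher stayed at 0, except for a range of 0 to 1 with a mouse left out (Scd2). Acacb was called lower at -1.26 with upper quartile scaling (adjusted p = 0.0347), and on deposited RPKM without AdCMV replicate 4 (-1.17) or AdVEGF replicate 1 (-1.29). Dgat2 was called lower after median-ratio scaling without AdCMV replicate 3 (-1.10, adjusted p = 0.00166).

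After median-ratio scaling, with and without the block, log2 fold changes turned sign for Srebf2 (-0.066), Acat2 (-0.23), Fdps (-0.091), Nsdhl (-0.016), Ebp (-0.20), Dhcr7 (-0.13), Acly (-0.19), Fasn (-0.40) and Scd1 (-0.035). With upper quartile scaling this held for Acat2 (-0.16), Fdps (-0.016), Ebp (-0.12), Dhcr7 (-0.058), Acly (-0.11) and Fasn (-0.32). With 1 mouse left out, values crossed 0 for Insig2 (-0.36 to 0.021), Acly (-0.065 to 0.35), Acaca (-0.44 to 0.044), Fasn (-0.32 to 0.26), the log2 ratio of Srebf1 to Srebf2 (-0.13 to 0.25) and that of Fads1 to Fads2 (-0.095 to 0.17), and no adjusted p among the values that crossed was under 0.05. The deviations of same-numbered mice of the 2 groups had correlations of 0.036, 0.11, 0.0076, 0.096 and 0.29. These were not set against differently numbered mice, so they do not show whether the numbers paired the mice. The replicate block gave 1933 transcripts higher and 256 lower, with 2 members lower and 0 higher, or 3 lower after median-ratio scaling. The lowest count of a tested member in any library was 60 reads.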
